A study of Mus musculus with 2 samples.

Results

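Axon guidance ligands and their receptors were examined for trimethylation of lysine 27 of histone H3 (H3K27me3) in mouse embryonic stem cells. The genes were taken by symbol: every protein-coding gene of GENCODE mouse release 21 whose name is the stem Sema, Plxn, Epha, Ephb, Efna, Efnb, Slit, Robo, Ntn or Unc5 with its number or letter and number. This gave 68 of the 21755 protein-coding genes on the autosomes and the X chromosome. There were 37 ligands, which are 20 semaphorins (Sema), 5 ephrin-A genes (Efna), 3 ephrin-B genes (Efnb), 3 Slit genes, 4 netrins (Ntn) and 2 netrin-G genes (Ntng). The 31 receptors are 9 plexins (Plxn), 9 EphA genes (Epha), 5 EphB genes (Ephb), 4 Robo genes and 4 Unc5 genes. The stem Unc5 already ends in its number, so Unc5a, Unc5b, Unc5c and Unc5d were taken. Netrin-G proteins belong to the netrin family by sequence but bind other partners than the netrins, and the name pattern takes them too.

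Growth cones, the motile tips of axons, steer by these proteins. Semaphorins signal through plexins, ephrins through the Eph receptor tyrosine kinases, Slits through Robo receptors, and netrins through Dcc and the Unc5 receptors. Most of the pairs also act outside the nervous system, in blood vessels, epithelia and immune cells. H3K27me3 is laid down by Polycomb repressive complex 2, and in embryonic stem cells it is known for lying over CpG-rich promoters of genes that act later in development.

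H3K27me3 was mapped by ChIP-seq in E14TG2a.4 cells, an established embryonic stem cell line that the labels give as male, of strain 129/Ola and of embryonic day 3.5. There were 2 samples of a single group, labelled biological replicates 1 and 2 of the same line. The labels give no treatment, no engineered allele and no second condition, so values can be compared between genes and between replicates only. Each replicate had its own peak list, with 63651 peaks over 53.6 Mb in replicate 1 and 98582 peaks over 58.4 Mb in replicate 2, and the read depth behind the lists is unknown. The promoters of Pou5f1, Nanog and Sox2, which define embryonic stem cells, had no peak in either replicate, whereas those of Pax6, Gata6, Hoxd13 and T, genes of later lineages, had one in both. Of the fibroblast genes looked up as markers of feeder cells, Pdgfra, Thy1, Col1a1 and Col1a2 had a peak in both replicates and Col3a1, Acta2, Dcn and Fn1 in neither. A peak list shows where the mark lies and not whether a gene is expressed.

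A gene is called marked where the 1 kb on each side of its annotated 5' end, a window of 2001 bp, overlaps a peak by at least 1 bp in both replicates. The signal values are the authors' own values for each peak, of unstated scaling, and serve to rank and describe peaks within a list. All positions are on build mm10 (GRCm38).

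Promoter sequence is shown for the ligands and receptors with the highest signal ranks (the mean over replicates of the percentile of the signal within each peak list), Ntng2, Sema7a, Robo3 and Epha8, for a marked plexin, Plxnd1, and for plexins and a semaphorin without a peak, Plxnb2, Plxnb3 and Sema4b. Each stretch is the 250 bases before the gene's 5' end, written 5' to 3' on the strand of the gene from the RefSeq copy of GRCm38, and capitals mark the CpG dinucleotides (CG, the same on both strands). The stretches lie at chr2:29253006-29253255 (minus strand, Ntng2), chr9:57939862-57940111 (plus strand, Sema7a), chr7:80186591-80186840 (plus strand, Sema4b), chr9:37433247-37433496 (minus strand, Robo3), chr4:136956817-136957066 (minus strand, Epha8), chr6:115995006-115995255 (minus strand, Plxnd1), chr15:89180789-89181038 (minus strand, Plxnb2) and chrX:73756840-73757089 (plus strand, Plxnb3).
Ntng2: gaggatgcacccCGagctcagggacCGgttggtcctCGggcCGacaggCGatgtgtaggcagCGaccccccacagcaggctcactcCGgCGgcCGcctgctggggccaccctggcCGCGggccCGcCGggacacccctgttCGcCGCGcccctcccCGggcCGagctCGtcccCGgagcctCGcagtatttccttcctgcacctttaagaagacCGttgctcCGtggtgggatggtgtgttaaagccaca
Sema7a: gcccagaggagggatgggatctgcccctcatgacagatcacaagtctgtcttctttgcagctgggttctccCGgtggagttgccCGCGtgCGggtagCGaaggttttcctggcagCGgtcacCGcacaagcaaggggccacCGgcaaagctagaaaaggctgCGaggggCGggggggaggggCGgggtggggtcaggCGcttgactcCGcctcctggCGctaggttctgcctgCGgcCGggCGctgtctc
Sema4b: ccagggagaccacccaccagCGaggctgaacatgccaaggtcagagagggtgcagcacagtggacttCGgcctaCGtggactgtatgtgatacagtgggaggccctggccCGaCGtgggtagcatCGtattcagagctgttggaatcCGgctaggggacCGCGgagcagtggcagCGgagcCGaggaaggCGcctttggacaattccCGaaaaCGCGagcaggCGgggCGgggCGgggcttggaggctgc
Robo3: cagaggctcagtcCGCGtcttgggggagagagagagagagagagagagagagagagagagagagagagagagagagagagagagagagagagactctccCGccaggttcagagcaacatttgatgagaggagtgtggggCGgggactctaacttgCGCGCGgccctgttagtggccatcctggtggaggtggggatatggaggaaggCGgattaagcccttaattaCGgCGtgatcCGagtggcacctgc
Epha8: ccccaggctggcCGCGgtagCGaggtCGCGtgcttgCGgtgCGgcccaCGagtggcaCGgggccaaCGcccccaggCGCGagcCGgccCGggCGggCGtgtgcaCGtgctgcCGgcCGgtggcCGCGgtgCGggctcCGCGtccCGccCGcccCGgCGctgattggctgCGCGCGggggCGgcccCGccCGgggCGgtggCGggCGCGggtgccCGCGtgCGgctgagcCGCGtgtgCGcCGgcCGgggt
Plxnd1: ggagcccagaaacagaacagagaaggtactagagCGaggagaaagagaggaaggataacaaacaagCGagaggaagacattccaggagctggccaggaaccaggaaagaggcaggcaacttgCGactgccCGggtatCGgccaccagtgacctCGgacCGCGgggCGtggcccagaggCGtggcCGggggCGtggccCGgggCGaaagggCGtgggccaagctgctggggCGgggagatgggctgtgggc
Plxnb2: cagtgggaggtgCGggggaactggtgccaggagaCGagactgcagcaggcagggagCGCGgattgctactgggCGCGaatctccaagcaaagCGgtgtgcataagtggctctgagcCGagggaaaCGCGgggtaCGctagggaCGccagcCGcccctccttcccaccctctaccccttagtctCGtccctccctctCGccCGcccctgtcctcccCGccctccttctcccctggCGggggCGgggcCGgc
Plxnb3: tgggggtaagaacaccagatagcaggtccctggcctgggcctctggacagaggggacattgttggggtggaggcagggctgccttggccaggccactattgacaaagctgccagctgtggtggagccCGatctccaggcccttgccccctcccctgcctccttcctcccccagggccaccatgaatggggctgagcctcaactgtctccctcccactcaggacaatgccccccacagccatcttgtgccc
The marked promoters held 23 CpGs (Ntng2), 17 (Sema7a), 11 (Robo3), 46 (Epha8) and 16 (Plxnd1), and those without a peak held 18 (Sema4b), 20 (Plxnb2) and 1 (Plxnb3). Epha8 was extreme, since 0.377% of all protein-coding genes have at least as many CpGs in this stretch. Robo3, with the highest signal of all 68 genes, was close to the middle, with at least as many CpGs in 43.5% of genes. Plxnb2 and Sema4b, although without the mark, had more CpGs than Robo3 and Plxnd1. At least 1 CpG stood in 92.5% of the promoters of all protein-coding genes. All 250 bases lay inside a peak in both replicates at Robo3 and Ntng2. At Sema7a 60 bases did so in replicate 1 and 123 in replicate 2, and at Epha8 64 and 68.

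Most of these genes carried the mark. Of the 68 genes 50 (73.5%) were marked, against 26.1% of all protein-coding genes. Ligands were marked at 30 of 37 promoters (81.1%) and receptors at 20 of 31 (64.5%). Genes are not replicates and some of them are neighbours on a chromosome, so the difference between ligands and receptors was not tested. It did not hold under a stricter rule. If a gene counted only with 50% of its window inside peaks in both replicates, 18 ligands (48.6%) and 16 receptors (51.6%) remained, against 14.0% of all protein-coding genes.

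**Figure D1:**
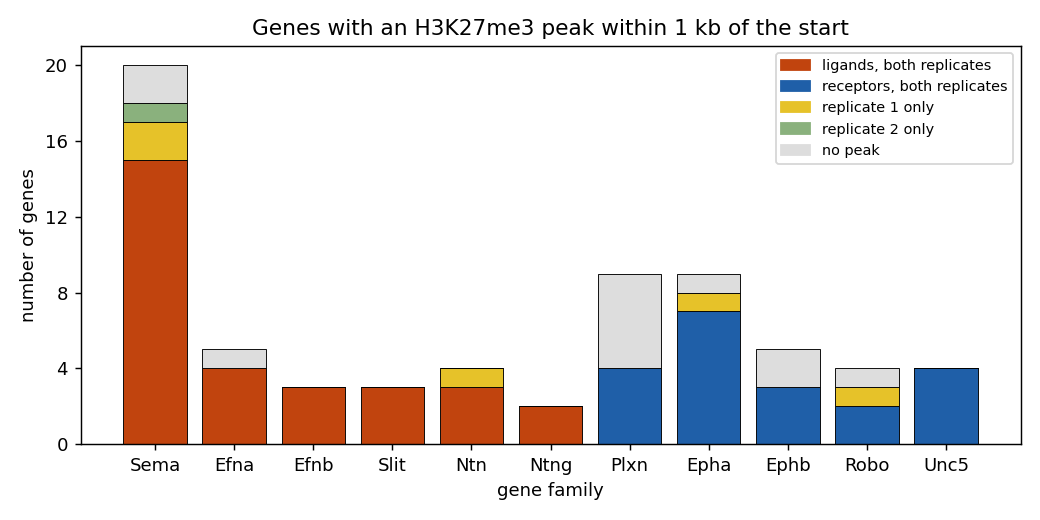
Number of genes in each family (bars, ligand families left, receptor families right) with an H3K27me3 peak within 1 kb of the gene start in both replicates, in a single replicate or in neither. All members of Efnb, Slit, Ntng and Unc5 had a peak in both replicates, while 5 of the 9 plexins had none.

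The replicates gave nearly the same genes. Replicate 1 had a peak at 55 of the 68 promoters (background 27.8% of all protein-coding genes) and replicate 2 at 51 (background 30.2%). In replicate 1 alone there were Sema3c, Sema4d, Ntn5, Epha4 and Robo4, against 1.74% of all genes, and in replicate 2 alone there was Sema3e, against 4.11%. The signals were 6.03 at Sema3c, 3.89 at Sema4d, 3.01 at Ntn5, 2.89 at Epha4, 3.90 at Robo4 and 3.74 at Sema3e. The median over all peaks was 4.66 in replicate 1 and 4.32 in replicate 2. Between replicates, the rank correlation (Spearman) over the 50 marked genes was 0.761 for signal and 0.95 for covered bases, and Pearson's r was 0.79 for signal and 0.929 for covered bases. All 50 points come from the same 2 libraries. The signal differed between replicates by a median of 1.11 and at most by 4.28, at Sema3d, with 11.5 in replicate 1 and 7.23 in replicate 2.

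**Figure D2:**
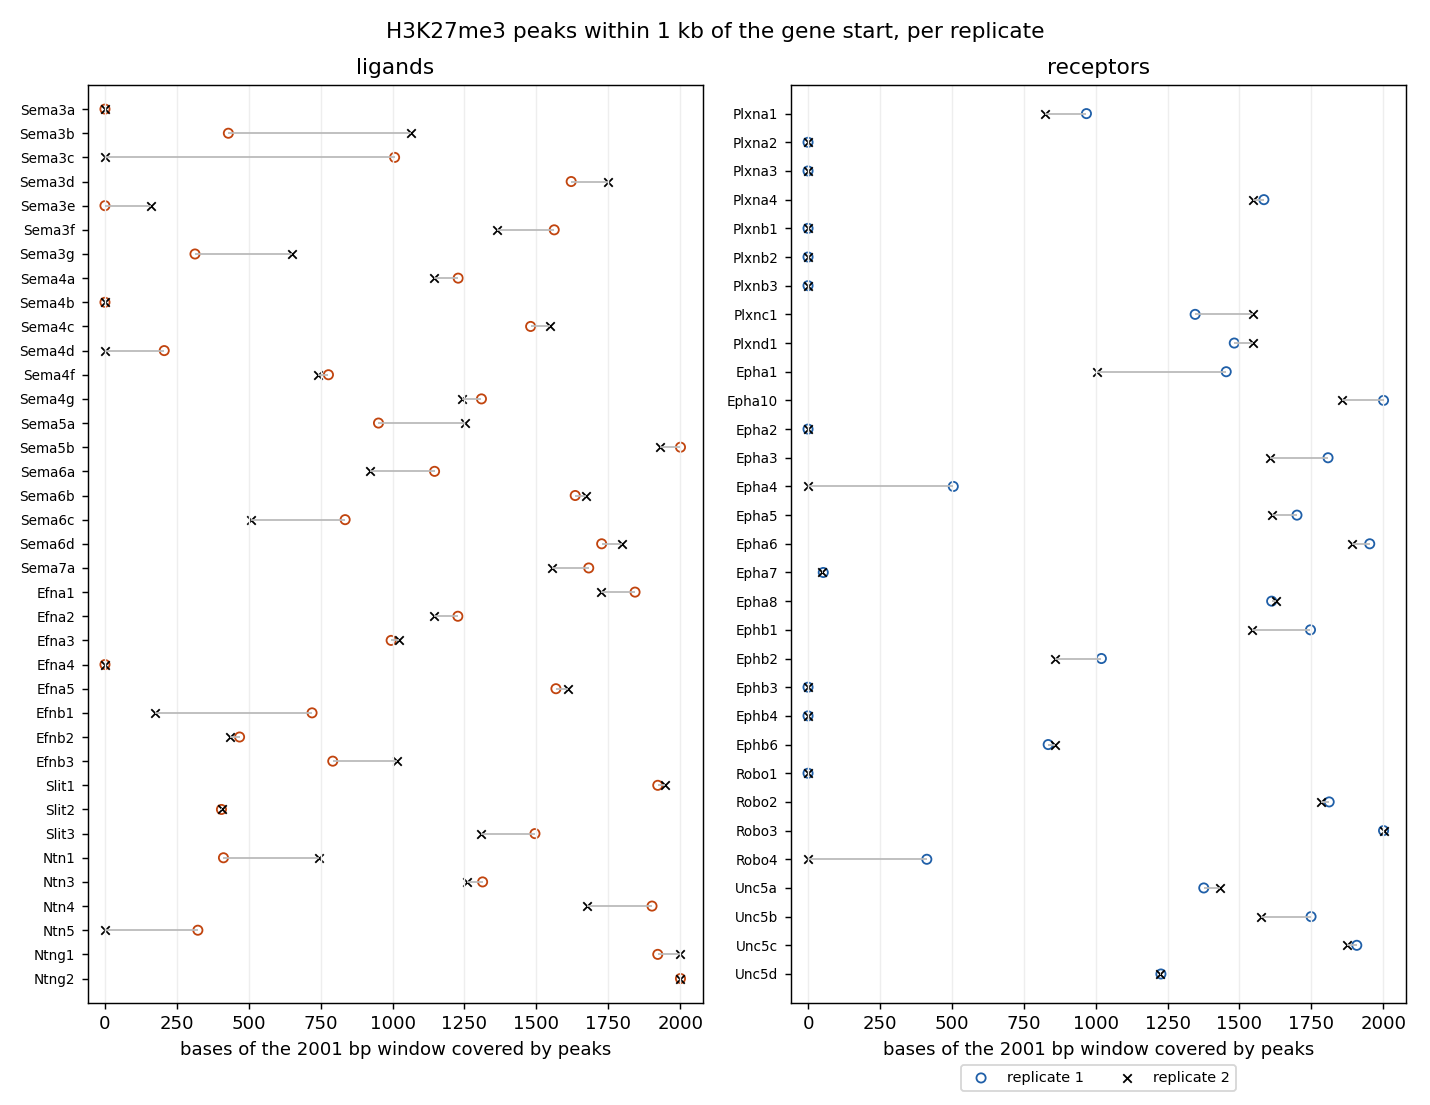
Bases of the 2001 bp window around each gene start that lie in H3K27me3 peaks of replicate 1 (circles) and replicate 2 (crosses), for 37 ligands (left) and 31 receptors (right). Ntng2 and Robo3 reach 2001 bp in both replicates, and Plxnb1, Plxnb2 and Plxnb3 stay at 0.

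Among marked genes, the peaks ranked high. The median signal over the 50 genes was 10.3 in replicate 1 and 9.54 in replicate 2, against 7.67 and 7.56 over all 5679 marked promoters. A signal in the top 5% of peaks in both replicates was found at 23 of the 68 genes (background 6.34% of all protein-coding genes). These were 13 ligands and 10 receptors. They made up 46.0% of the marked genes of the set, against 24.3% of all marked promoters. Ligands had median signals of 9.49 and 9.54, and receptors of 10.4 and 9.69. The median cover of the window was 1311 bp and 1256 bp at ligands, and 1598 bp and 1548 bp at receptors. Where receptors were marked, their windows were thus covered further than those of ligands, while fewer of them were marked. These medians are over marked genes alone and were not tested.

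**Figure D3:**
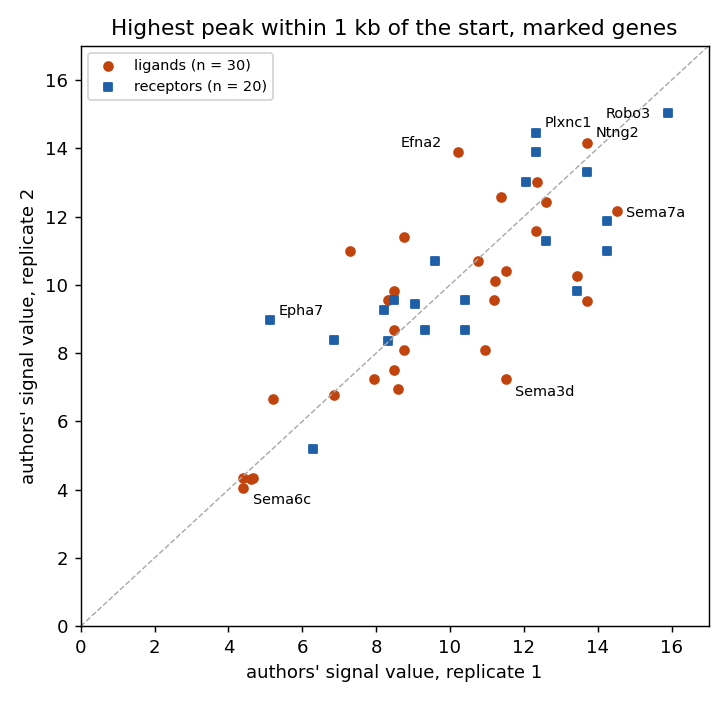
The authors' signal value of the highest peak within 1 kb of the start in replicate 1 (x axis) and replicate 2 (y axis) for 30 marked ligands (circles) and 20 marked receptors (squares), with the line of equal values dashed. Robo3 lies at the top with 15.9 and 15.0, and Sema6c at the bottom with 4.38 and 4.05.

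Secreted and membrane-bound ligands were both mostly marked. Ligands held at the membrane (semaphorins of classes 4 to 7, ephrins and netrin-G) were marked at 20 of 23 genes (87.0%), and secreted ligands (class 3 semaphorins, Slits and netrins) at 10 of 14 (71.4%). The secreted ligands had median signals of 11.4 and 9.83 in replicates 1 and 2, and the membrane-bound ones 8.68 and 9.11.

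The semaphorins, the largest ligand family, were marked at 15 of 20 genes. All members of classes 5, 6 and 7 were marked. Sema7a, which is held at the surface by a lipid anchor and binds integrins and Plxnc1, had the highest signal of the family in replicate 1, 14.5, and 12.2 in replicate 2, where Sema5b and Sema6a were higher. Sema6a, a transmembrane ligand of A-type plexins on chromosome 18, had 12.6 and 12.4, and Sema5b had 11.4 and 12.6. Sema6d had 10.96 and 8.10, Sema5a 8.77 and 8.10 and Sema6b 8.49 and 8.68. Sema6c ranked lowest of all 50 marked genes by mean percentile, with 4.38 and 4.05. Class 4 was marked at 4 of 6 genes. Sema4c, a ligand of Plxnb2, had 10.8 and 10.7, Sema4f had 8.49 and 7.52, Sema4g 8.60 and 6.94, and Sema4a, which acts in immune cells, 6.85 and 6.77. Sema4d, a ligand of Plxnb1, had 206 bp of its window covered in replicate 1 alone, and Sema4b had none in either, with the nearest common peak 67.3 kb away.

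The class 3 semaphorins, which are secreted and act through neuropilins with plexins, were marked at 4 of 7 genes. Sema3f had signals of 13.7 and 9.53 and Sema3d had 11.5 and 7.23. Sema3b and Sema3g were weaker, with 4.66 and 4.34 at Sema3b and 4.62 and 4.32 at Sema3g. The start of Nisch lies 914 bp from that of Sema3g, so a peak in this window cannot be assigned to Sema3g alone. Sema3c had 1007 bp of its window covered in replicate 1 and no peak there in replicate 2. Sema3e, a ligand of Plxnd1, had 159 bp in replicate 2 alone, and its nearest peak common to the replicates lay 625.1 kb away. Sema3a, known for the collapse of growth cones, had no peak at its 5' end.

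Plexins, the receptors of semaphorins, were marked least often, at 4 of 9 genes (44.4%). Plxnd1, which acts in vessels and axons, had signals of 14.3 and 11.9, Plxnc1 had 12.3 and 14.5, and Plxna4 had 12.1 and 13.0. Plxna1 had 9.59 and 10.7, with 968 bp and 824 bp covered. The others, Plxna2, Plxna3 and the whole B class (Plxnb1, Plxnb2 and Plxnb3), had no peak in the window in either replicate. Every plexin thus had a peak in both replicates or in neither. The nearest common peak lay 5.74 kb from the start of Plxnb2 and 109.0 kb from that of Plxnb1. Plxna3 and Plxnb3 lie on the X chromosome, where 10.5% of all protein-coding genes are marked. The third gene of the set on this chromosome, the ligand Efnb1, was marked, with 720 bp covered in replicate 1 and 174 bp in replicate 2.

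Ephrin-A ligands, which are lipid-anchored, were marked at 4 of 5 genes. Efna3 had signals of 12.4 and 13.0 and Efna2 had 10.2 and 13.9. Efna5, a ligand known from the map of the retina onto the midbrain, had 7.95 and 7.23, and Efna1 had 5.21 and 6.65 although 1843 bp and 1725 bp of its window were covered. Efna4 had no peak, with the nearest common one 3.0 kb from its start. Their EphA receptors were marked at 7 of 9 genes. Epha8 had 13.7 and 13.3, Epha10, whose kinase domain lacks activity, had 14.3 and 10.99, and Epha6 had 10.4 and 9.54. Epha5 (8.49 and 9.54) and Epha3 (8.33 and 8.37) were in the middle of the range and Epha1 (6.30 and 5.21) was low. Epha2, a receptor of epithelia, had no peak, with the nearest common one 50.2 kb from its start. Epha4, which also binds ephrin-B ligands, had 505 bp covered in replicate 1 alone, by a peak with a signal of 2.89 and a −log10 q of 2.26.

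Ephrin-B ligands, which span the membrane, were all marked, and inside the window the bases common to both replicates lay downstream of the start. At Efnb1 common peaks also lay upstream, beyond the window. The window was covered over 468 bp and 435 bp at Efnb2 and over 792 bp and 1015 bp at Efnb3, and at none of the 3 genes was the start base itself inside a peak in both replicates. At Efnb3 it was covered in replicate 2 alone, and an uncovered start base was the usual case, since 36.7% of all marked promoters had it covered in both replicates. Efnb2, which with Ephb4 separates arteries from veins, had its nearest common peak 566 bp downstream of the start, with signals of 11.2 and 9.54. Its partner Ephb4 had no peak, with the nearest common one 32.6 kb away. Of the EphB receptors 3 of 5 were marked. Ephb1 had 13.4 and 9.83, Ephb6, which lacks kinase activity, had 9.32 and 8.68, and Ephb2 had 8.22 and 9.25.

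Slit1, Slit2 and Slit3, the secreted repellents of commissural axons, were all marked. Slit1 was covered over 1922 bp and 1947 bp with signals of 12.3 and 11.6, and Slit3 had 11.2 and 10.1. Slit2 was covered over only 405 bp and 406 bp, with the nearest common peak 596 bp downstream of the start. Of the Robo receptors, Robo3 and Robo2 were marked. Robo3, which controls the crossing of the midline, had the highest signals of all 68 genes, 15.9 and 15.0, which rank at percentile 99.8 of each peak list, and its window was covered over all 2001 bp. Robo2 had 6.85 and 8.39. Robo4, a receptor of endothelial cells next to Robo3 on chromosome 9, had 413 bp covered in replicate 1 alone, and Robo1 had no peak at its 5' end.

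Of the netrins 3 of 4 were marked. Ntn3 had signals of 13.4 and 10.3, Ntn4, a component of basement membranes, had 11.5 and 10.4, and Ntn1, the classical attractant of the floor plate, had 8.77 and 11.4 over 412 bp and 744 bp. Ntn5 had 323 bp of its window covered in replicate 1 alone. The netrin-G genes, which encode lipid-anchored proteins of synapses, were both marked, Ntng2 with 13.7 and 14.2 over all 2001 bp and Ntng1 with 8.49 and 9.83. Another annotated gene, 6530402F18Rik, overlaps the 250 bases before the Ntng2 start, so a peak there cannot be assigned to Ntng2 alone. All 4 Unc5 receptors, which mediate repulsion by netrin, were marked. Unc5a had 12.3 and 13.9, Unc5b had 12.6 and 11.3, Unc5d had 10.4 and 8.68 and Unc5c had 9.04 and 9.44, with at least 1224 bp of each window covered in each replicate.

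The result at some genes turned on which start was used. With any annotated transcript start allowed, 55 of the 68 genes were marked, 32 ligands and 23 receptors, against 29.4% of all protein-coding genes. The 5 added genes were Sema3a, Sema3c, Plxna2, Ephb3 and Robo1. Sema3a is annotated with 9 starts, of which 4 were marked. The best covered of them, 274.2 kb downstream of the gene's 5' end, had 545 bp and 1070 bp of its window covered, with signals of 5.10 and 5.49. At Plxna2 the marked start lay 1607 bp downstream, with signals of 7.40 and 7.23. At Ephb3 it lay 7662 bp downstream, with 5.37 and 4.05. Robo1 was marked at 1 of 9 starts, 354.9 kb downstream, but there only 224 bp and 10 bp of the window were covered. The peaks of the replicates shared no base there, so this call does not rest on a common peak.

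At the edge of the window, Epha7 was the marked gene with the least cover, 53 bp in replicate 1 and 50 bp in replicate 2, and its nearest common peak began 951 bp from the start. By distance to the nearest common peak, though not by cover, Ntn1 came next, at 882 bp. At Ntn1 the replicates shared 119 bp of the window, and in replicate 2 the start base itself was covered. Just outside were Sema3c, at 1250 bp, and Sema4d, at 1383 bp.

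The mark lay more often downstream of the start than upstream. By mean cover of the 2 kb flanks, this difference was larger at ligands than at receptors. Peaks common to both replicates covered, on average over all 37 ligands, 61.0% of the first 2 kb downstream and 36.7% of the 2 kb upstream. Over the 31 receptors these were 50.7% and 43.7%, and over all protein-coding genes 15.6% and 11.3%. With flanks of 5 kb they were 47.7% and 25.7% at ligands and 40.8% and 26.7% at receptors. The ratio of downstream to upstream cover at receptors was 1.16 over 2 kb, against 1.37 at all genes. Over 5 kb it was 1.53, against 1.42 at all genes. The highest cover was 72.4% of ligand bases between 1750 and 2000 bp downstream, 59.1% of receptor bases between 1250 and 1500 bp downstream, and 17.7% over all protein-coding genes between 750 and 1000 bp downstream. Cover dipped at the start in ligands, receptors and all genes. Within the 1 kb window, the downstream side was covered further than the upstream side at 36 of the 50 marked genes (72.0%), against 58.6% of all marked promoters. By this count ligands and receptors were close, at 22 of 30 marked ligands (73.3%) and 14 of 20 marked receptors (70.0%). The start base itself lay in a peak of both replicates at 18 of the 68 genes, against 9.59% of all protein-coding genes. As a share of marked genes this was 36.0%, against 36.7% of all marked promoters. None of these differences was tested.

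**Figure D4:**
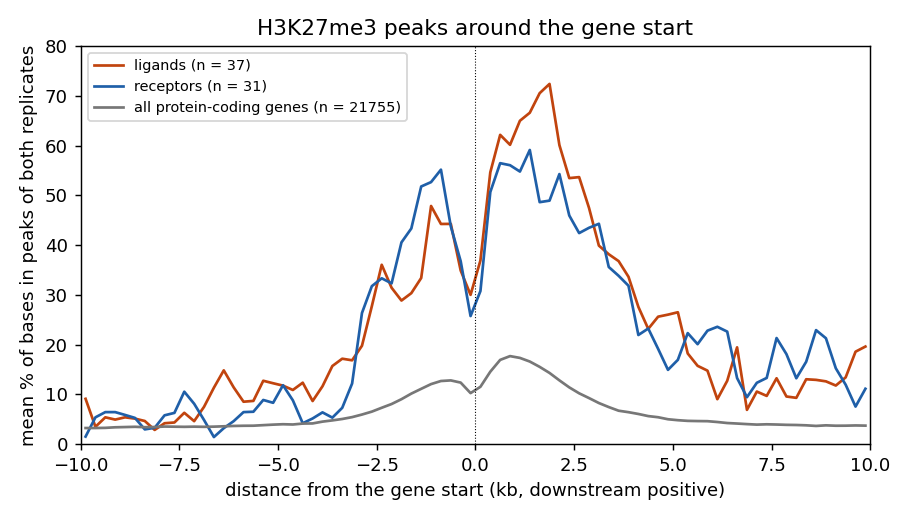
Mean percentage of bases in peaks of both replicates (y axis), in bins of 250 bp up to 10 kb on each side of the gene start, for 37 ligands, 31 receptors and all 21755 protein-coding genes. Ligands reach 72.4% downstream of the start, receptors 59.1%, and all genes 17.7%, with a dip at the start in each line.

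Common peaks were joined into domains where they lay within 3 kb of each other. Domains of 10 kb or longer lay at 18 of the 68 genes (background 5.53% of all protein-coding genes), 9 ligands and 9 receptors. Such domains lay at 36.0% of the marked genes of the set, against 21.2% of all marked promoters. The longest domains were at Epha8 (27.7 kb), Sema5b (26.8 kb), Sema6b (23.6 kb), Ntng2 (20.6 kb) and Robo3 (20.0 kb). The Robo3 domain ran from 37416303 to 37436340 on chromosome 9, which spans nearly the whole gene of 17.6 kb. The Epha8 domain, from 136931565 to 136959301 on chromosome 4, likewise took in most of a gene of 27.4 kb. The median domain at the marked genes was 7.11 kb, against 4.61 kb at all marked promoters. Efnb2, Efnb3 and Sema6c had short domains of 1.63 kb, 1.77 kb and 1.62 kb.

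The choice of genes did not use promoter CpG content. The ratio of observed to expected CpG over 500 bp on each side of the start had a median of 0.657 in ligands, 0.759 in receptors and 0.558 in all protein-coding genes. Among receptors, marked genes had a median of 0.779 and those without a peak 0.616. Among ligands the medians were 0.657 in marked genes and 0.602 in the 3 without a peak. With all protein-coding genes split into 3 equal classes by this ratio, members in the highest class were marked at 24 of 28 genes, in the middle class at 23 of 32 and in the lowest at 3 of 8. The corresponding shares of all protein-coding genes were 28.4%, 39.4% and 10.5%. In the lowest class, 3 of 4 ligands (Sema3b, Sema3g and Sema4a) and 0 of 4 receptors (Plxna2, Plxnb3, Robo1 and Robo4) were marked. These calls depended on the rule. Plxna2 and Robo1 were marked at another annotated start, at Robo1 by peaks without a common base. Robo4 had a peak in replicate 1 alone. Sema3b lost the mark with a window of 0.5 kb. A high ratio alone did not go with the mark at plexins, since Plxnb1 (0.869) and Plxnb2 (0.825) had no peak while Plxnd1 (0.876) had one of the highest signals.

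Partners of these proteins were looked up from lists written for the purpose. Of 26 co-receptors and binding partners 22 (84.6%) were marked. They included Nrp1 (9.56 and 9.83) and Nrp2 (12.1 and 11.1), the co-receptors of class 3 semaphorins, Dcc, the attractive netrin receptor (10.1 and 7.81), and Draxin, a secreted antagonist of netrin (13.2 and 14.2). The weakest of the 22 were Dscaml1 (3.29 and 2.93) and Flrt3 (2.29 and 3.91). Neo1, another netrin receptor, L1cam, an adhesion molecule of axons, and Flrt1 had no peak, and Lrrc4c, a ligand of netrin-G1, had one in replicate 1 alone. Of 43 intracellular effectors 20 (46.5%) were marked. Among them were Crmp1, Dpysl3, Dpysl4 and Dpysl5, cytoskeletal mediators of semaphorin signals, with signals of 12.3 and 10.02 at Crmp1, whereas Dpysl2 of the same family had a peak in replicate 1 alone. Regulators of the cytoskeleton were found on both sides. Rnd1 (9.59 and 9.77), Limk1, Tiam1, Trio, Vav2 and Vav3 were marked, and Rac1, Rhoa, Cdc42, Rock1, Rock2, Cfl1 and Pak1 had no peak. The shares were thus 81.1% for ligands, 64.5% for receptors, 84.6% for co-receptors and partners and 46.5% for effectors, all against 26.1% of all protein-coding genes, and the differences between these lists were not tested.

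**Figure D5:**
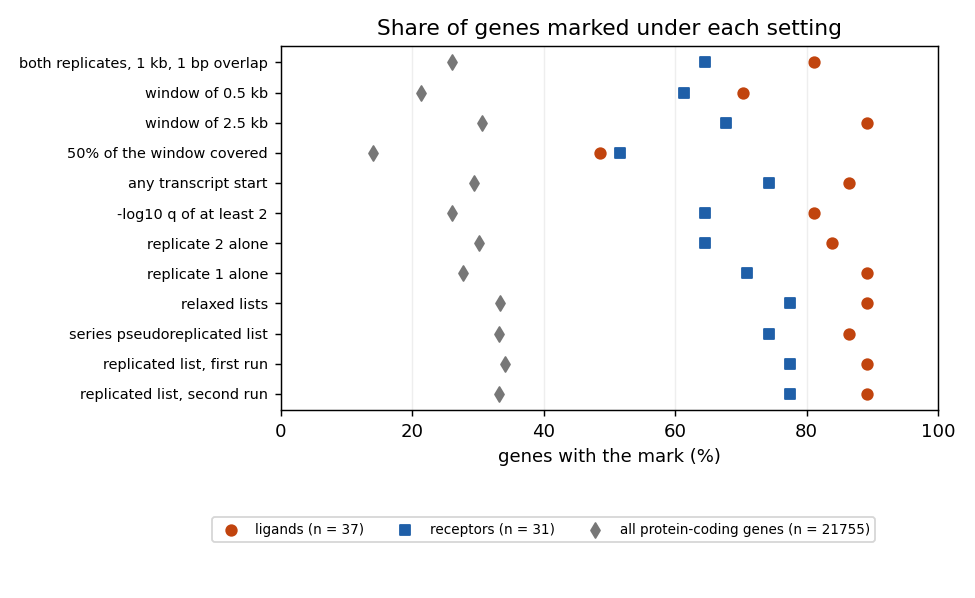
Percentage of 37 ligands (circles), 31 receptors (squares) and 21755 protein-coding genes (diamonds) called marked under each window, overlap rule and peak list. Ligands lie above receptors under each rule drawn except the one asking for 50% of the window, at 48.6% for ligands and 51.6% for receptors.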

How the data were processed

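H3K27me3 was measured in 2 replicates of E14TG2a.4, per the labels. The authors called peaks for each replicate and for both together, on mm10, per the deposited file listing. The sources used here do not give the aligner, peak caller, thresholds or control. Each peak has the authors' deposited signal value, of unstated scaling, and deposited −log10 p and −log10 q. The read depth is unknown, so no interval or floor was computed and an absent peak may reflect too few reads. The mm9 list was not used.

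Each replicate's pseudoreplicated list served for the calls. No peak ran past a chromosome end of GRCm38. Signals were given for leading marked genes of each family, and covered bases and signals for genes with a peak in a single replicate. Distances to the nearest common peak were given for some of the genes without a peak. Other values were chosen after they were seen. Members, gene lists and rules were chosen with earlier results of these data known, so lists were described by counts and medians without tests. Alternatives were windows, overlap rules, transcript starts, joining distances, peak lists and memberships. The overlap code was tested on simulated peaks. Intervals were handled with pandas 2.3.3 and NumPy 2.4.6 in Python 3.11.15, correlations with SciPy 1.17.1, sequences with pysam 0.24.0 and figures with Matplotlib 3.10.9.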

Additional observations from a re-analysis of the deposited data

How the results depend on the processing

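Ligands were marked more often than receptors under the 1 kb rule and in 10 of 11 other settings of window, overlap, start and peak list. The exception was 50% of the window covered, with 18 of 37 ligands and 16 of 31 receptors, and 3036 of all protein-coding genes. The cause was not tested. All settings draw on the same 2 libraries and overlap in their calls, so they are not separate checks. From a single replicate, 51 to 55 of the 68 genes had a peak, 31 to 33 ligands, 20 to 22 receptors and 6057 to 6574 of all protein-coding genes, and the median signal lay between 9.54 and 10.3. Under all settings 34 genes were marked. Under none were 8 marked, namely Sema4b, Efna4, Plxna3, Plxnb1, Plxnb2, Plxnb3, Epha2 and Ephb4. The counts of 34 and 8 have no background, since they were not made over all protein-coding genes. The relaxed lists added 7 genes (Sema3c, Sema4d, Ntn5, Plxna2, Epha4, Ephb3 and Robo4), and the replicated lists of both replicates together added the same 7. The share of all protein-coding genes rose too, from 26.1% to 33.3% with the relaxed lists and to 33.2% and 34.2% with the replicated lists. A window of 0.5 kb lost 5 (Sema3b, Efnb1, Efnb2, Slit2 and Epha7), and with it 21.4% of all protein-coding genes were marked. Without the Unc5 genes, as the name rule reads to the letter, 16 of 27 receptors (59.3%) were marked. No paired analysis was possible because there is a single group. Unknown depth limits what an absent peak shows.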

Other observations

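Common peaks also lay inside some of the genes, counted from the 5' end on and so together with any peak at the start. Ephb1 had the most covered bases between its ends, 42191 bp of a gene of 432.6 kb (9.75%), followed by Slit3 with 27904 bp (4.75%) and Sema5b with 21451 bp (17.4%). The domain at the start was 16.5 kb long at Ephb1, 4.12 kb at Slit3 and 26.8 kb at Sema5b. As a share of the gene, cover was highest at Robo3 (72.2%), followed by Efna3 (60.3%), Ntn3 (59.8%), Efna2 (59.6%) and Epha8 (59.4%), which are all shorter genes. Of the 18 genes not marked at the 5' end, 9 had no common peak anywhere between their ends, 2 ligands (Sema3e and Sema4b) and 7 receptors (Plxna3, Plxnb1, Plxnb3, Epha2, Epha4, Ephb4 and Robo1). Over all protein-coding genes, 14368 of the 16076 not marked at the 5' end had none.

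Neighbouring genes of the set did not always share the mark. On chromosome 9 Robo3 had the strongest peaks of the set, while Robo4, with its start 31.4 kb away, had a peak in replicate 1 alone. Sema3d, Sema3a and Sema3e start within 1642.0 kb of each other on chromosome 5, and of these Sema3d alone was marked at its 5' end. On chromosome 3 Sema4a, Efna1 and Efna3 were marked and Efna4 was not. By contrast, Ephb2 and Epha8, with starts 120.8 kb apart on chromosome 4, were both marked, as were Sema3b and Sema3f, 101.2 kb apart on chromosome 9. Ephb6 and Epha1, 767.8 kb apart on chromosome 6, were both marked too. Plxnb3 and Plxna3, 572.0 kb apart on the X chromosome, were both without the mark.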
